A study of Homo sapiens with 2 samples.

Results

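The clustered replication-dependent histone genes were followed on 2 Affymetrix U133 Plus 2.0 arrays of MDA-MB-231 cells, an established human line of triple-negative breast cancer. Members were all probe sets whose platform annotation names only genes with symbols HIST1H, HIST2H or HIST3H, or the current forms H1-1 to H1-6, H2AC, H2BC, H3C or H4C followed by a number. This gave 68 of the 54675 probe sets, naming 61 of the 69 genes that a RefSeq gene table lists under these symbols. Of the 68, 48 named 1 gene (42 genes in all) and 20 named several, so 19 genes were seen only through shared probe sets. By class, 7 probe sets belonged to H1, 15 to H2A, 19 to H2B, 10 to H3 and 15 to H4, and 2 were shared by H3 and H2A genes.

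One array came from cells that had received a control siRNA, the other from cells that had received siRNA directed at KMO, the gene of kynurenine 3-monooxygenase, and RNA of both was taken 48 h after transfection. Both samples were the same line in the same medium with serum, and neither has a replicate. No test between the groups was therefore possible, no p-value was computed, and every difference describes this pair of arrays. The description field of the arrays carries the strings shLUC and shK421, so whether an siRNA or a hairpin construct was used is not settled; groups follow the titles.

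Histones H2A, H2B, H3 and H4 form the protein core around which DNA is wound, and H1 binds the linker between cores. The clustered genes supply the bulk of these proteins while DNA is copied in S phase, and their mRNAs end in a stem-loop in place of a poly(A) tail. The stem-loop is bound by SLBP, which guides the maturation and translation of these mRNAs, and they are degraded when replication stops. Some clustered genes can also yield polyadenylated mRNA. Standard labelling for these arrays starts from poly(A), and the labels name the manufacturer's standard protocol. The share of tailed and stem-loop transcripts behind each value was not measured.

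The table of promoters held 64 of the 69 genes (RefSeq, build GRCh38.p14; 250 bases before and 50 after the gene's start). In this window ATTTGCAT, the octamer known from H2B promoters, was present on either strand in 14 of 18 H2B genes (77.8%), 11 of 16 H2A genes, 1 of 11 H3 genes and 0 of 6 H1 and 0 of 13 H4 genes, against 1.80% of all 27305 promoters. The TATA box TATAAA was found in 42 of 64 genes (65.6%, against 12% of all promoters). The letters CCAAT were found in all H1, H2A, H2B and H3 genes but in 3 of 13 H4 genes (35.7% of all promoters). The stretch AAACACA of the H1 box, a motif added after the sequences were seen, was found in 6 of 6 H1 genes, 9 of 64 genes in all, and 5.76% of all promoters. Windows of neighbouring H2A and H2B genes on opposite strands can overlap, by 255 of 300 bases for H2AC6 and H2BC4. A match in such shared DNA counts for both genes, so the H2A and H2B counts are not separate. The 250 bases before the start are shown for 5 members on which the results below turn: the H2B genes H2BC12 and H2BC5, which differed in opposite directions, H2AC6, whose window overlaps that of H2BC4, and the linker histones H1-2 and H1-4. They lie at chr6:27146859-27147108 (minus strand), chr6:26157871-26158120 (plus), chr6:26123922-26124171 (plus), chr6:26056471-26056720 (minus) and chr6:26156079-26156328 (plus). Capitals mark exact matches of these 4 motifs on either strand, and matches that touch or overlap run together.

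H2BC12: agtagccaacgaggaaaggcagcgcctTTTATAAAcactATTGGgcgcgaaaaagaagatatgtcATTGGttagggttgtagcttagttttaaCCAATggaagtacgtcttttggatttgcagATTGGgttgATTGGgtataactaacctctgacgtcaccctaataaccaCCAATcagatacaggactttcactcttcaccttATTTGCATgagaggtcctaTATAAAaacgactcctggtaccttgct
H2BC5: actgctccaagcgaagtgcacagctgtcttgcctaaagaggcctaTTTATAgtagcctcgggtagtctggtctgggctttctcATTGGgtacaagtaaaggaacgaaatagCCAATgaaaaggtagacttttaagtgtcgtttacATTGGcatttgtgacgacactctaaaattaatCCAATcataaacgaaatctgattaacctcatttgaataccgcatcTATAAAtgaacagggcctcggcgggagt
H2AC6: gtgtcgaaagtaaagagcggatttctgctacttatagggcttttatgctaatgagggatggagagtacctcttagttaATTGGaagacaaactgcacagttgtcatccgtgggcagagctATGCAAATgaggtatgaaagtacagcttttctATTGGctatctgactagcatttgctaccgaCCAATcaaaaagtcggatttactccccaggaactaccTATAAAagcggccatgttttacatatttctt
H1-2: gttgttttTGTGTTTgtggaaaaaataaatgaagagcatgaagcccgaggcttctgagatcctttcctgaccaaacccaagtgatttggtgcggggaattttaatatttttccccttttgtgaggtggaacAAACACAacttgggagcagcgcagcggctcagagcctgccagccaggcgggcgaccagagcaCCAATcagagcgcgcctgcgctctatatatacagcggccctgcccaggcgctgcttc
H1-4: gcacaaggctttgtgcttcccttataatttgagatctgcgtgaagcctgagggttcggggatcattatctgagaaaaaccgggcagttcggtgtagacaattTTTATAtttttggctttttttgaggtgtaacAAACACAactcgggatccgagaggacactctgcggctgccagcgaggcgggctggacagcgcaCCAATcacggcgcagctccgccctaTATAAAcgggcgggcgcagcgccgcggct

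The H2BC12 stretch holds an exact octamer beginning 46 bases before the start. The H2BC5 stretch holds none; its nearest matches carry 1 substitution each, C6A beginning 44 bases and T4G beginning 105 bases before the start, counted from 1 at the 5′ end of the octamer with its base first. The genes H2BC13, H2BC15 and H2BC26 also lack an exact octamer in the window. Among H2B genes with an exact octamer, H2BC9 was higher with KMO siRNA (0.26, log2) and H2BC4 lower (-1.0, weak signal). Among those without one, H2BC13 was higher (0.52) and H2BC15 lower (-0.09), both with weak signal. Whether an exact octamer goes with the direction of a difference was not tested. These matches describe the letters of the windows and are no evidence of binding.

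Levels are log2 values after robust multi-array averaging (RMA), which has no detection call and no true zero. A probe set was counted as measured where its mean over both arrays was at least 6. This round minimum was passed by 30.8% of all probe sets, and of 17 genes of unrelated tissues with a probe set only MBP passed it, through 4 of its probe sets. With the strongest probe set of each gene, the line's own markers VIM, CD44, EGFR, CAV1, ANXA1 and AXL had levels from 9.76 to 12.90 in the control array and from 9.84 to 12.96 in the KMO siRNA array, whereas ESR1 and PGR, receptors that such cells lack, stayed under 5 on both. The strongest probe set of ERBB2 stood at 7.44 and 7.37. Markers of immune and endothelial cells did not reach 6 on either array. The 3 probe sets of the targeted KMO read 2.95, 2.37 and 2.11 without and 2.92, 2.51 and 2.35 with KMO siRNA, in that order. All were far under the minimum, so they check nothing about the knockdown.

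Of the 68 probe sets, 14 (20.6%) were measured, and none of the 14 had an array under 6. Of these, 9 were higher with KMO siRNA, 4 were lower and 1 was identical, with differences (KMO siRNA minus control, log2) from -0.42 to 0.30. A difference of 1.5-fold, which is 0.58 on the log2 scale, was reached by 0 of 14 in either direction. Among all 16836 measured probe sets 5.01% were higher and 5.00% lower by that much, so a count of 0 in 14 is close to this background. The median of the 14 was 0.11, beside 0.04 over all measured probe sets, and 64.3% against 54.4% were higher. The spread of the 14 differences over probe sets (SD 0.22) was less than that of all measured probe sets (SD 0.37), but the median absolute difference was nearly the same, 0.19 beside 0.21. These SDs describe probe sets and not cultures.

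**Figure D1:**
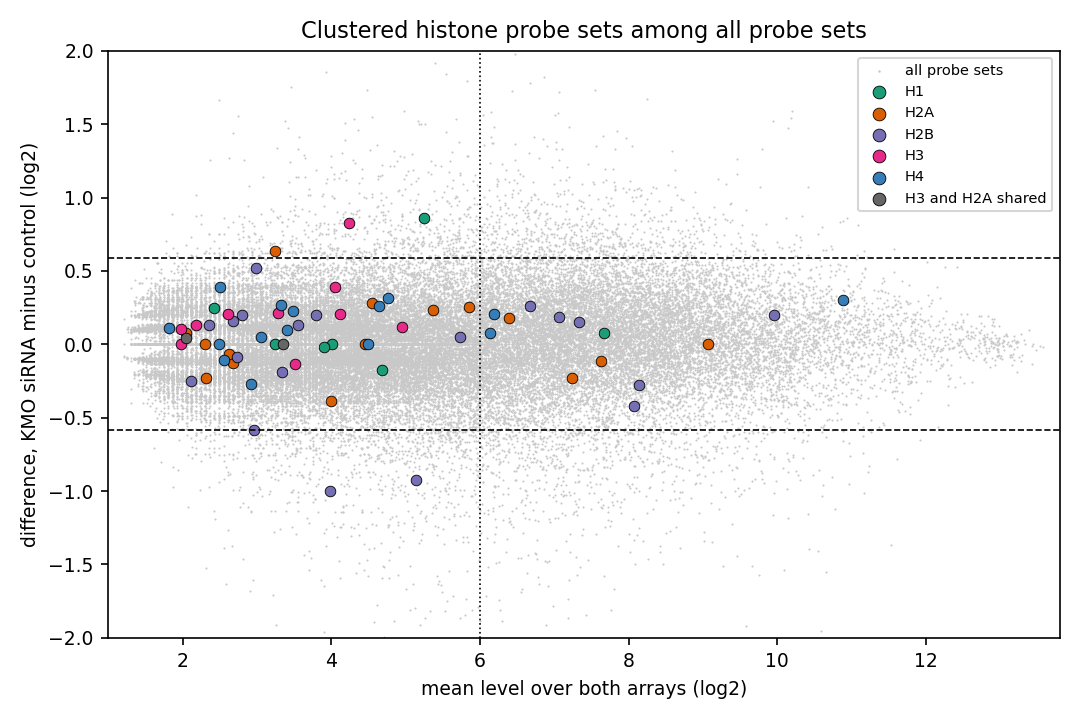
Difference between the arrays (KMO siRNA minus control, log2) against the mean level over both (log2), with clustered histone probe sets in colour by class and all 54675 probe sets in grey; 37 probe sets beyond a difference of 2 are not drawn. Dashed lines mark 1.5-fold and the dotted line the minimum level of 6: the 14 coloured points to its right all lie between the dashed lines.

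H2B, a core histone that pairs with H2A, had 6 measured probe sets, of which 4 were higher and 2 were lower. The probe set of H2BC12 stood at 9.85 in the control array and 10.05 with KMO siRNA. This difference of 0.20 (1.15-fold) was reached or exceeded by 29% of all measured probe sets. H2BC9 was at 6.54 and 6.80, a difference of 0.26, which 23.1% of all measured probe sets reached or exceeded. H2BC6 was at 7.25 and 7.40, and the probe set shared by H2BC4, H2BC6, H2BC7, H2BC8 and H2BC10 was at 6.97 and 7.15. These 4 were all slightly higher with KMO siRNA.

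H2BC5 went the other way with both of its probe sets. One stood at 8.28 in the control array and 7.86 with KMO siRNA, a difference of -0.42 (1.34-fold), and the other at 8.27 and 7.99, a difference of -0.28. The first is the lowest difference among the 14, and 9.15% of all measured probe sets were as low or lower. The second was matched or passed by 16.1%. Probe sets of 1 gene are no replicates of a culture, and both IDs of H2BC5 end in _x_at, a mark of probes that may bind related transcripts. In all, 11 of the 14 measured probe sets had IDs ending in _x_at or _s_at. H2B genes are close copies of each other, so the value of any single gene among them is uncertain.

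Among H2A probe sets, 4 were measured, 1 higher, 2 lower and 1 identical. H2AC14 was at 6.30 in the control array and 6.48 with KMO siRNA. H2AC6 was at 7.36 and 7.13, a difference of -0.23 (1.18-fold), and 19.7% of all measured probe sets were as low or lower. The H2A pair H2AC18 and H2AC19 shares its probe sets: one was at 9.07 on both arrays, identical to the last digit, and another at 7.68 and 7.57, a difference of -0.11. The third, at 2.65 and 2.58, was far under the minimum. The 4 measured H2A values thus lay on both sides of 0, with a median of -0.06.

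H4, the most conserved core histone, was measured mainly through probe sets that name 14 H4 genes at once. The first stood at 10.73 in the control array and 11.03 with KMO siRNA, a difference of 0.30 (1.23-fold), the highest among the measured members, which 19.0% of all measured probe sets reached or exceeded. The second was at 6.08 and 6.29, and the single-gene probe set of H4C11 at 6.09 and 6.17. All 3 measured H4 values were higher with KMO siRNA. The other 3 probe sets naming the same 14 genes were under the minimum and also higher, at 4.60 and 4.92, at 3.37 and 3.60 and at 1.76 and 1.88. These 5 probe sets carry the same 14 gene names, so they do not stand for 5 separate genes. Their control levels ran from 1.76 to 10.73, and which of the 14 mRNAs each one binds was not examined. Over all 15 H4 probe sets, 11 were higher, 2 lower and 2 identical, with a median of 0.11.

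**Figure D2:**
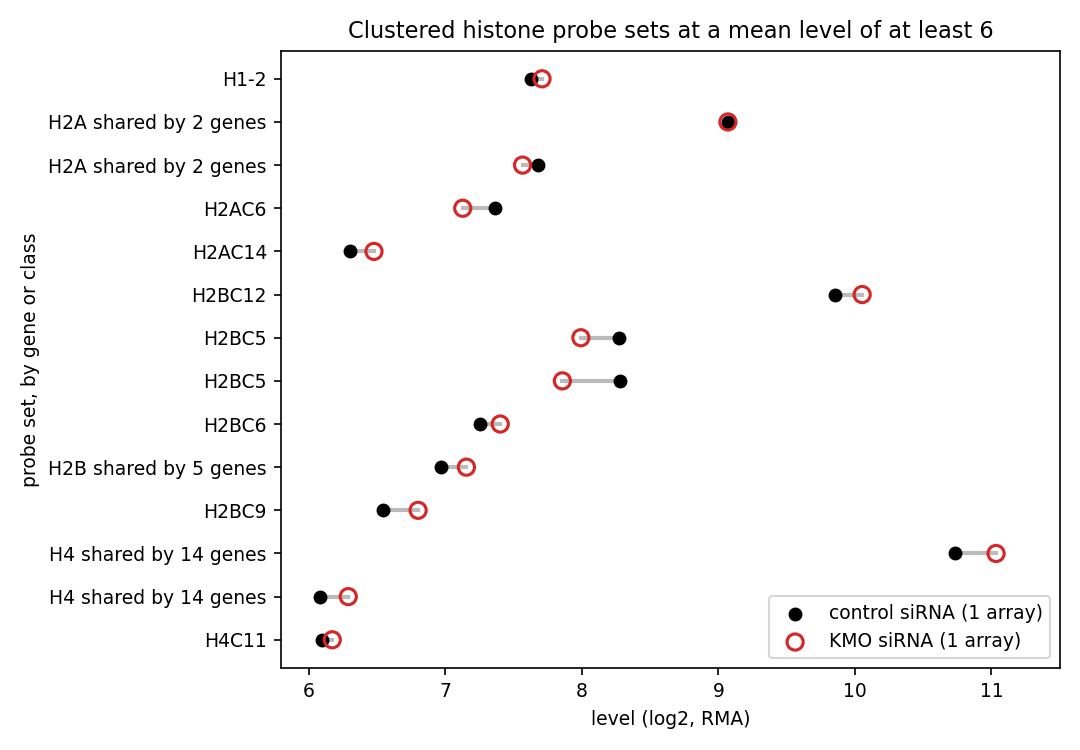
Level (log2, RMA) of the 14 clustered histone probe sets whose mean was 6 or more, filled for the control siRNA array and open for the KMO siRNA array, 1 array each and so with no error bars; rows are grouped by class. Both H2BC5 probe sets and H2AC6 lie to the left with KMO siRNA, all 3 H4 rows lie to the right, and 1 H2A row coincides.

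The linker histones gave 1 measured probe set, that of H1-2, at 7.63 in the control array and 7.71 with KMO siRNA, a difference of 0.08. H1-4, another somatic linker histone, was under the minimum on both arrays at 4.82 and 5.68, a difference of 0.86. Of the 37839 probe sets under the minimum, 0.589% were as high or higher. H1-3 was at 4.77 and 4.59, H1-5 at 2.29 and 2.54 and H1-1 at 3.24 on both. The testis-specific H1-6 had 2 weak probe sets, one identical on both arrays and one at 3.91 and 3.89.

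No H3 probe set reached the minimum. Of 10 H3 probe sets, 8 were higher, 1 was lower and 1 identical, with a median of 0.17, beside a median of 0 and a share of 42.5% higher among all probe sets under the minimum. H3C2 was at 3.82 in the control array and 4.64 with KMO siRNA, a difference of 0.82, H3C3 at 3.85 and 4.24, and H3C6 at 4.02 and 4.22 and at 1.93 and 2.03. The probe sets shared by 10 H3 genes differed in sign, at 3.57 and 3.44 and at 3.18 and 3.40. Each of these H3 levels was under 6 on both arrays.

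Under the minimum lay 54 members, 31 of them higher, 15 lower and 8 identical on both arrays. Among all probe sets under the minimum, 13.2% were identical. A difference of 1.5-fold was passed upward by 3 of the 54, H1-4, H3C2 and a probe set shared by 6 H2A genes (2.93 and 3.56), against 2.00% of all probe sets under the minimum. It was passed downward by 3, H2BC21 (5.60 and 4.68, a difference of -0.92), H2BC4 (4.48 and 3.48, a difference of -1.0) and a probe set shared by 5 H2B genes including H2BC4 (3.25 and 2.66), against 2.52%. No fold is given for these, since both arrays were under 6. Stronger probe sets naming the same 5 H2B genes were higher, at 6.97 and 7.15 (measured) and at 5.71 and 5.76. The nearest members under the minimum were a probe set shared by 6 H2A genes (5.72 and 5.98), the shared H2B probe set at 5.71 and 5.76 and H2AC17 at 5.25 and 5.49; the nearest above it were H4C11 and the second shared H4 probe set. With each level under 6 set to 6, none of the 54 would have differed at all, as no array of theirs reached 6.

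Where a gene had several probe sets of its own, they could be compared. Besides H2BC5, the 5 genes H1-6, H2AC15, H2AC25, H3C6 and H4C8 had 2 each, all under the minimum. H3C6 differed by 0.11 to 0.21 and H2AC15 by -0.23 to -0.12, in 1 direction each. H4C8 ran from -0.11 to 0.27 and H2AC25 from -0.38 to 0. H2BC5 is thus the only gene of the set with 2 single-gene probe sets above the minimum.

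By position, 55 of the 69 genes lie on chromosome 6, 13 on chromosome 1 and 1, H4C16, on chromosome 12, which is named only in shared H4 probe sets and stands outside the clusters. A gap between gene starts of over 500 kb divides the chromosome 6 genes into groups of 34, 5 and 16. Measured and weak single-gene probe sets were counted together by group. Those of the first group, from H2AC1 to H4C8, numbered 29, of which 6 were measured, with 16 higher and 9 lower and a median of 0.08. The second group, from H2BC11 to H2AC12, had 3 with a median of 0.16, of which 1 was measured. The third, from H2BC13 to H2BC17, had 13, of which 2 were measured, with 9 higher and 4 lower and a median of 0.10. Over all probe sets, measured or not, the median was 0 and 46.2% were higher. The 3 single-gene probe sets on chromosome 1, of H2BC21 and H2AC25, were all under the minimum, with 2 lower and 1 identical. Shared probe sets, which make up 5 of the 14 measured members and include those of H2AC18 and H2AC19, were left out of these counts by position.

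The lower values of the first group included 3 of 4 neighbouring genes. In order along the chromosome, H2BC4 differed by -1.0 (under the minimum), H2AC6 by -0.23, H1-4 by 0.86 (under the minimum) and H2BC5 by -0.42 and -0.28. The measured probe set that names H2BC4 among 5 H2B genes was higher, by 0.19. The stretch of 4 neighbouring genes was picked after its values were seen, and no test was made of it.

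**Figure D3:**
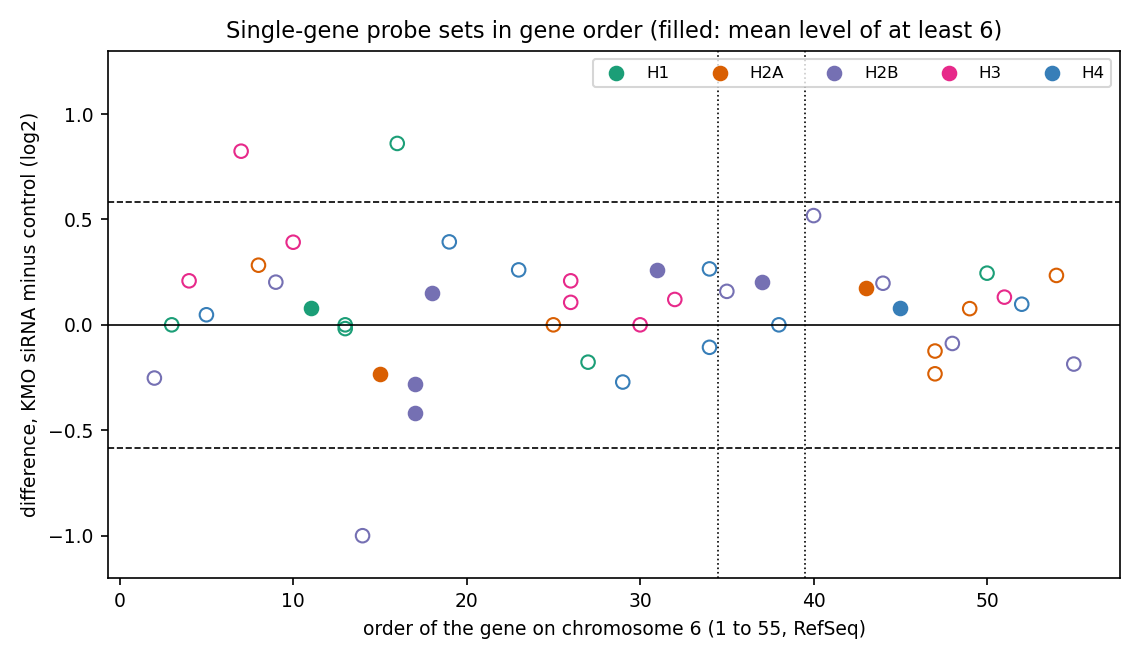
Difference between the arrays (KMO siRNA minus control, log2) of each single-gene probe set on chromosome 6 by the order of its gene from 1 to 55; filled points had a mean level of at least 6, dotted lines part the 3 groups of genes and dashed lines mark 1.5-fold. Filled points of H2AC6 and H2BC5 lie under 0 in the first group, and no filled point lies beyond a dashed line.

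H2A and H2B genes often stand head to head and share the DNA between their starts. Of 11 such pairs with starts within 1000 bases, 4 had a single-gene probe set on both sides. H2AC6 and H2BC4, with 246 bases between their starts and windows that overlap by 255 bases, were both lower, with differences of -0.23 and -1.0. The measured probe set shared by H2BC4 and other H2B genes was higher, by 0.19. H2AC14 and H2BC14 (245 bases apart) were both higher, by 0.18 and 0.20, and H2AC15 and H2BC15 (194 bases) were both lower, with -0.23 and -0.12 for the former and -0.09 for the latter. H2AC17 and H2BC17 (240 bases) had opposite signs, 0.23 and -0.19. In each of the 4 pairs at least the H2B partner was under the minimum, so the agreement in sign of 3 pairs is a description only.

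Some close relatives fell outside the rule. H2BC12L, a near copy of H2BC12, was at 8.45 in the control array and 8.77 with KMO siRNA, a difference of 0.32. The testis gene H3-4 and the pseudogenes H2AC5P and H4C10P stayed under 4 on both arrays.

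Histones of genes outside the rule that are made outside S phase as well (here called replication-independent) were compared from a list of 12. Of these, 9 had a probe set of their own and 7 were measured. With the strongest probe set of each gene, 4 were higher and 3 lower, 1 in each direction by 1.5-fold. H2AX, the variant phosphorylated at DNA breaks, was at 8.48 in the control array and 9.37 with KMO siRNA (1.86-fold higher). The linker histone H1-10 was at 9.08 and 8.15 (1.91-fold lower). The 4 probe sets of H2AZ2, a variant found at gene starts, were higher by 0.28 to 1.05, and both of H2AZ1 by 0.21 and 0.32. The list's 15 measured probe sets had a median of 0.18 and ran from -0.93 to 1.05, whereas the 14 clustered histone probe sets stayed within -0.42 to 0.30. Whether the 2 lists differ was not tested.

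Genes that act on clustered histone mRNA were read beside all measured probe sets, of which 54.4% were higher and 5.01% were higher by 1.5-fold. By probe set, 8 of 9 for transcription were higher and 3 passed 1.5-fold (median 0.41). For 3′ end processing 15 of 17 were higher and 4 passed (median 0.35), and for decay and translation 6 of 8 and 0. The counts of genes that follow use the strongest probe set of each gene. Of 6 measured genes for their transcription, 5 were higher and 2 passed 1.5-fold: CCNE1 by 0.70 and CCNE2, at 6.67 and 8.41, the cyclins whose kinase CDK2 (0.18) phosphorylates the histone gene coactivator NPAT (0.49 and 0.41 with 2 probe sets). Of 11 genes for 3′ end processing, 9 were higher and 1 was lower, with 3 past 1.5-fold: the cap-binding subunit NCBP1 (0.72), its partner SRRT (0.63) and the cleavage factor subunit CSTF2 (0.60). A weaker measured probe set of CSTF2 differed by 0.24 and did not pass. SLBP itself was at 9.78 in the control array and 10.27 with KMO siRNA, a difference of 0.49. Of the 7 genes for decay and translation 5 were higher and 0 passed 1.5-fold, and the median of their 8 measured probe sets, 0.06, was near the 0.04 over all measured probe sets, with the exonuclease ERI1 at 0.47 and the uridylyltransferase TUT4 at -0.36.

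Chaperones, which carry new histones to DNA, included 16 measured genes with 35 measured probe sets. Of the probe sets, 26 were higher and 9 by 1.5-fold, with a median of 0.17, beside the same 54.4% and 5.01% over all measured probe sets. With the strongest probe set of each gene, 13 genes were higher and 5 by 1.5-fold: HIRA (1.12), CHAF1A (0.92), CHAF1B (5.85 and 6.81), the import receptor IPO4 (0.84) and the acetyltransferase HAT1 (0.60). RBBP4, a histone-binding subunit of several complexes, was lower by 1.5-fold at -0.62. For ATRX and SUPT16H a weaker probe set passed 1.5-fold (0.75 and 0.78) while the strongest did not (0.01 and 0.41). All 8 replication genes listed beside them, the helicase subunits MCM2 to MCM7, the clamp PCNA and the reductase subunit RRM2, were higher, 7 of them by 1.5-fold, and their 14 probe sets had a median of 1.09 beside the 0.11 of the clustered histones. PCNA, the exception, was at 10.28 and 10.86. Among the 14 measured clustered histone probe sets the largest rise, that of the H4 genes, was 0.30, less than that of every measured probe set of these replication genes, the lowest of which was PCNA at 0.57. The replication genes were listed with earlier results of these data known, and whether the 2 lists differ was not tested. The share of stem-loop transcripts behind the histone values was not measured.

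**Figure D4:**
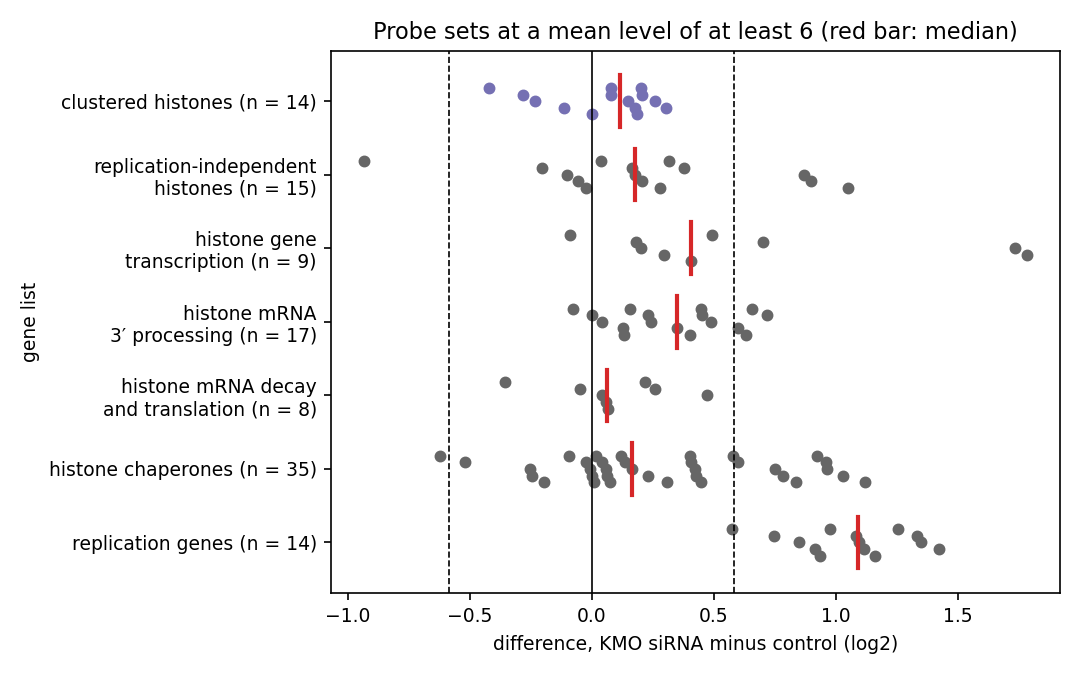
Difference between the arrays (KMO siRNA minus control, log2) of each measured probe set (mean level 6 or more), by gene list, with the number of probe sets; red bars are medians over probe sets and dashed lines mark 1.5-fold. The 14 clustered histone points stay between the dashed lines, while 13 of the 14 points of the replication genes lie beyond the upper one.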

How the data were processed

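The authors deposited log2 levels after RMA for 54675 probe sets on 2 arrays. Affymetrix Expression Console is the tool that GEO lists, per the submitters' processing notes, with no version, and which arrays were normalized together was not stated. RMA includes quantile normalization, which removes shifts common to all transcripts. Names came from the platform annotation. Those of probe sets with 1 gene were updated by gene ID against RefSeq (41043 of 41097 matched). Among the rest, 1801 named several genes and entered a gene set only for clustered histones, and 11777 were unlisted. Both kinds stayed in the counts and shares over all probe sets. Differences, counts past 1.5-fold and medians were computed with pandas 2.3.3 and numpy 2.4.6 over probe sets whose mean was 6 or more, after the calculation was tested on simulated data. With 1 array a group there was no test, and precision is limited by that number. Any clustered histone could be named; of each other list, genes past 1.5-fold and the 2 with the largest difference. NPAT, CDK2, SLBP, H2AZ1 and PCNA were named outside this rule. Members and lists were chosen with earlier results of these data known.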

Additional observations from a re-analysis of the deposited data

How the results depend on the processing

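The count of clustered histone probe sets past 1.5-fold was 0 in each direction under minimum levels of 6 and 7, with 1 probe set per gene or the mean of all, without shared probe sets, without those ending in _x_at or _s_at, with weak levels taken as 6, after centring and at 2-fold. Apart from centring, these alternatives kept the same measured probe sets or fewer, averaged them or raised the fold. They could therefore not raise a count of 0. At a minimum of 5 the count was 1 higher (H1-4) and 1 lower (H2BC21). With no minimum it was 3 higher and 3 lower. All of these probe sets were under 6 on both arrays. The median of 0.11 ran from 0.04 to 0.20 over 9 alternatives. The H2A median of -0.06 ran from -0.11 to 0.09 over 5 alternatives, so its sign is not settled. Those of H2B (0.10 to 0.18, 8 alternatives) and H4 (0.11 to 0.21, 4 alternatives) stayed above 0 where run. Settings that left fewer than 3 probe sets gave no median. Leaving out _x_at and _s_at probe sets was such a setting for each of these classes. For H4, a minimum of 5 and weak levels taken as 6 kept the same 3 probe sets. Medians of the other lists kept their sign under the alternatives run, from 0.001 to 0.28 for the replication-independent histones, 0.18 to 0.60 for transcription, 0.24 to 0.45 for 3′ processing, 0.03 to 0.10 for decay and translation, 0.12 to 0.46 for chaperones and 1.0 to 1.1 for replication genes. Medians were set apart at a shift of 0.1. Such a shift occurred in 4 of 9 alternatives for transcription, 3 of 9 for chaperones and 2 of 9 for the replication-independent histones. It also occurred in 1 of 9 for 3′ processing and 1 of 5 for H2A, and for no other median. The limits are the single array per group, weak signal for most members and close sequence copies.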
